A study of Mus musculus with 6 samples.

Results

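The effector genes of mature blood cells examined here were 38 genes that encode granule proteins, parts of the antigen receptors and of the machinery that assembles them, cytotoxic proteins, globins and surface proteins. They were taken by name for what their products do, with no threshold on a measured value. They were set against all 21631 protein-coding genes of chromosomes 1 to 19 and X. The assay was ATAC-seq, which marks accessible DNA by the cuts a transposase makes in it. The cells were long-term blood stem cells of the C57BL/6 strain, from 3 aged and 3 young samples, and 1 peak list on mm10 stood for each sample. The cells of both ages were sorted from bone marrow as lineage-negative, Kit-positive and Sca1-positive cells without Flk2 and Cd34, and were then kept overnight at 3% oxygen in buffered saline with serum. Neither age, sex nor the number of animals behind a sample is stated in the labels, so the spread between them, and any p-value that rests on it, may be technical. The titles also carry numbers whose meaning is not stated, among them an exp number that the aged and young samples of the same replicate number share (2, 5 and 3 for replicates 1 to 3).

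Stem cells stand at the root of the blood hierarchy and do not make the products of most of these genes in quantity. Most effector genes are switched on after the stem cell stage, under factors such as PU.1, C/EBP and GATA proteins. Some are switched on in precursors of a lineage and others in the neutrophil, lymphocyte, red cell or mast cell that uses them. Some loci of later lineages are known to carry accessible elements in stem and progenitor cells before transcription starts, which is often called priming. The lineage-negative gate removes cells with surface proteins of mature blood cells, although the labels do not list the antibodies.

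The aged lists held 244692, 129137 and 129949 distinct peaks and the young lists 263956, 254869 and 110596 (replicates 1 to 3), and the read depth behind them is unknown. Aged replicate 3 and young replicate 2 stood apart, since they called 75.6% and 62.3% of the regions found in all 5 other lists, against at least 97.4% in the remaining lists. Peaks reaching a -log10 q of 5 numbered 224 in young replicate 2, and 6005 or more elsewhere. Of 12 genes chosen to check the label, 9 had a region at a gene end called in 4 or more lists, against 53.3% of all genes. Kit, Procr, Hlf, Meis1, Fgd5, Runx1 and Tal1 had a peak at an end in every list. A single end region called in all 6 lists, which is not the same count, was found for 30.7% of all genes. Mecom was also among the 9, whereas Slamf1, Hoxb5 and Ly6a, the gene of Sca1, had no such region. Flt3 and Cd34, whose proteins the sort selected against, also had an end region in 4 or more lists, as did Pecam1 and Col1a1 among 4 endothelial and stromal genes, and the part of other cells in the results was not tested. Peaks of a bulk sample do not tell a locus that is open in a few cells from one that is weakly open in many.

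The locus of a gene was its body with 10 kb on either side, and peaks of the 6 lists that overlapped were merged to regions. A region was taken as shared when 4 or more of the 6 lists called it, and a locus without such a region as closed. The end of a gene meant 1 kb around its annotated start or end. The percentile of a peak is the rank of its -log10 p within its own list, so it places a peak among the peaks of that list and is not a level that can be compared between lists of different length. Peaks of equal -log10 p share a percentile. In young replicate 2, values such as 42.7, 61.5 and 88.8 recurred at several genes. A high percentile in that list therefore need not mark a strong peak.

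Most effector genes had no shared region at their ends, and many had one further away. Of the 38, 5 had a shared region at a gene end, against 53.3% of all genes, whereas 19 had a shared distal region, against 49.3% of all genes. The 5 were Tfrc, Cpa3, Cd79a, Cd79b and Hbb-bt. Besides these, 17 genes had a shared region that was distal alone, a pattern held by 17.1% of all genes. Across the whole locus 22 of the 38 had a shared region, against 70.3% of all genes, and 16 were closed. A peak of any position at an end was present in 4 or more lists for 15 of the 38, against 58.9% of all genes, and in 0 lists for 4, against 12.1%. Effector genes are short, with a median of 4624 bp against 17329 bp for all genes, and short genes were called less often. Of the 20 effector genes under 5 kb, 3 had a shared end region, against 30.2% of all genes of that length. None of the 11 effector genes of 5 to 20 kb had one, against 56.7%, and 2 of the 7 of 20 kb or more did, against 62.1%. For a shared region anywhere in the locus the counts in these length classes were 10 of 20, against 40.8% of all genes, 5 of 11, against 72.9%, and 7 of 7, against 82.9%. No test was made of these shares, since the genes were listed with earlier results of these data known.

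The low count at gene ends was also found among stronger peaks. With peaks of a -log10 q of at least 2, Tfrc, Cpa3 and Cd79a still had a shared end region, against 44.3% of all genes, and with the 100000 strongest peaks of each list the same 3 genes did, against 50.4%. With aged replicate 3 and young replicate 2 both left out, and 3 of the 4 remaining lists required, the count was 8, against 56.9% of all genes. With regions called in 3 or more lists it was 12, against 58.5% of all genes, because Mpo, Ltf, Lyz2, Itgam, Mpeg1, Ms4a1 and Nkg7 stood just under the limit with 3 lists.

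**Figure D1:**
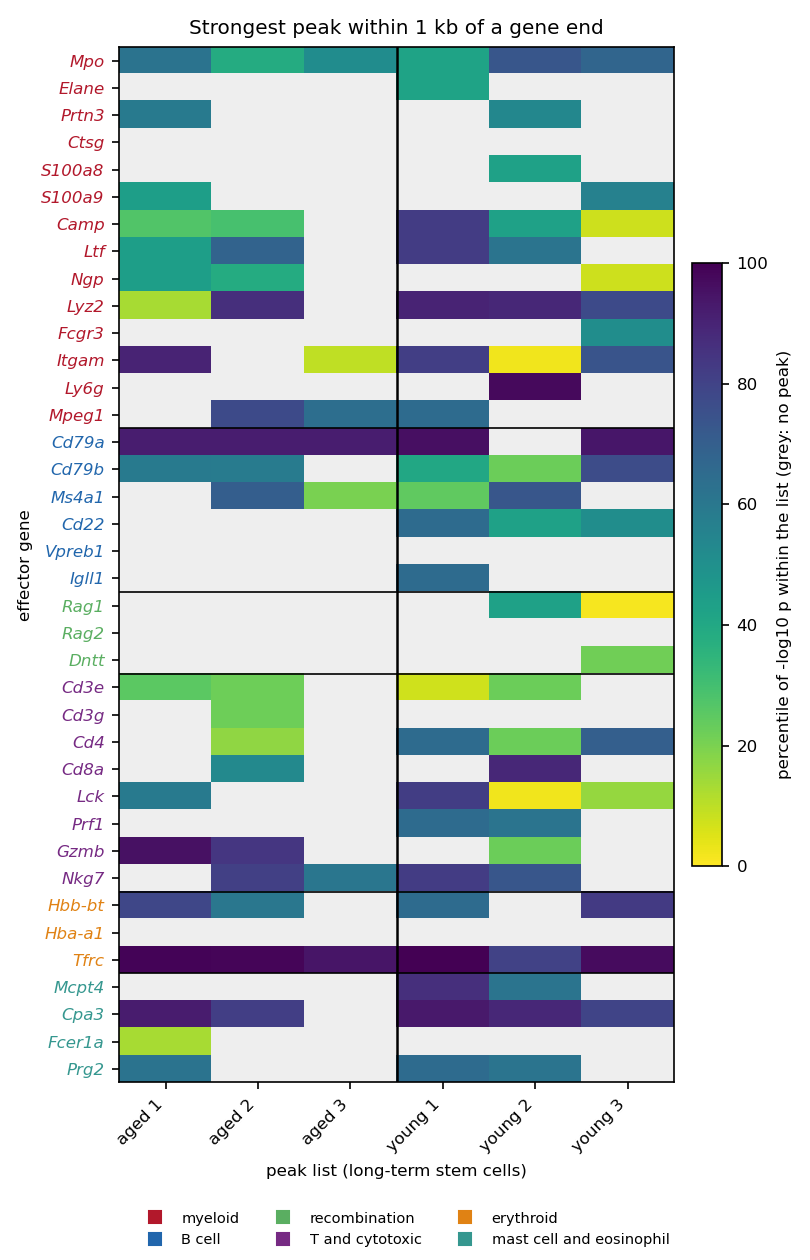
Percentile of the strongest peak within 1 kb of either end of each of the 38 effector genes (rows, names coloured by lineage) in the 3 aged and 3 young lists (columns); grey means no peak. Tfrc is dark in all 6 lists, Cd79a in 5 and Cpa3 in 5, while Ctsg, Vpreb1, Rag2 and Hba-a1 are grey throughout.

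The genes with a shared end region belonged to 3 lineages. Tfrc, the transferrin receptor through which dividing cells and above all red cell precursors take up iron, ranked at the percentiles 99, 98.5 and 94.4 in the aged lists, against 99.7, 80.3 and 96.9 in the young lists. It was the only effector gene whose end region was called in all 6 lists, which held for 30.7% of all genes. The region covered its start (chromosome 16, 32608627 to 32609414). Cpa3, a carboxypeptidase of mast cell granules, ranked at 92.4 and 81.6 in aged replicates 1 and 2 and had no call in aged replicate 3, against 93.1, 88.8 and 79.6 in the young lists. Its region also lay on the start (chromosome 3, 20242000 to 20242594). The ages overlapped for both genes.

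For the other 3 genes, the end regions of Cd79a and Hbb-bt were on no start that the promoter table gives, and those of Cd79b could not be placed against a start. Cd79a encodes a signalling chain of the B cell receptor. Its end region (chromosome 7, 24902777 to 24903252) lay 918 bp past the gene and within 1 kb of the start or end of Arhgef1, a guanine nucleotide exchange factor, so it cannot be given to Cd79a alone. The percentiles there were 92.1, 91.9 and 92.1 in the aged lists, against 95.8 and 93.8 in young replicates 1 and 3, with no call in young replicate 2. Cd79b, the partner chain, held 2 shared regions, at 106313638 to 106313914 and 106314409 to 106314821 on chromosome 11, and the second of these covers a boundary of the annotated gene, at 106314562. The strongest peak at its ends ranked at 58.6 and 58.3 in aged replicates 1 and 2, against 40, 22.3 and 76.7 in the young lists, and aged replicate 3 had none. These were ranks near the middle of a list, and Cd79b dropped out when weak peaks were left out. Hbb-bt, an adult beta globin gene, had a region 39 bp past the gene (chromosome 7, 103812220 to 103812484), 1571 bp downstream of its start, which dropped out in the same way. A second Hbb-bt region, at 103808941 to 103809424 and at no gene end, was called in 5 lists. It ranked at 99.2 and 79.8 in aged replicates 1 and 2, against 65, 73.1 and 84.6 in the young lists. The Hbb-bt locus kept a shared region with the 100000 strongest peaks, but not with a -log10 q of at least 2. Hbb-bt and Hba-a1 have near-identical copies, so reads there may have been assigned to either copy.

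**Figure D2:**
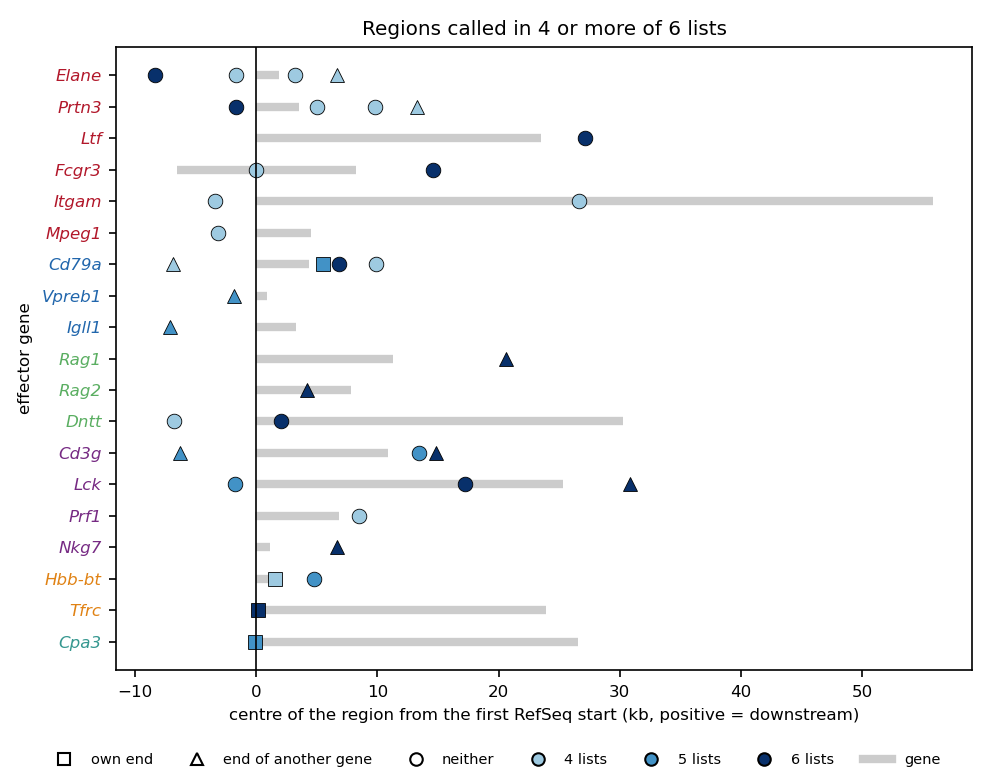
Distance in kb from the first RefSeq start of a gene to the centre of each region called in 4 or more lists, for the effector genes with a start in the promoter table; grey bars are the genes, symbols give the kind of position and shades the number of lists. Symbols lie on the start line for Tfrc, Cpa3 and Fcgr3; of the regions in 6 lists, that of Tfrc alone does.

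The loci held 35 distinct shared regions, 6 at an end of an effector gene, 10 at an end of another protein-coding gene and 19 at neither. Of the 11 called in all 6 lists, 6 were at neither, 4 at an end of another gene and 1 at an end of an effector gene. The aged lists called 35, 35 and 17 of the 35 regions and the young lists 34, 15 and 34, so most gaps fell on aged replicate 3 and young replicate 2. In 33 of the 35 regions all 4 other lists had a call. The region on the Fcgr3 start counts among the 19, because it lies inside the annotated gene. Some loci overlap, and 6 of the regions were counted for a pair of effector genes.

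Among the regions at no gene end, that of Dntt had the highest mean percentile, 98.6. Dntt encodes terminal transferase, which adds bases at the joints of antigen receptor genes in lymphoid precursors. A region inside Dntt, centred 2023 bp downstream of the start (chromosome 19, 41030937 to 41031658), ranked at the percentiles 98.1, 98.7 and 98.9 in the aged lists, against 98.6, 99 and 98.2 in the young lists. The ages overlapped, and none of the aged lists had a peak at the ends of the gene. Of the young lists, replicate 3 alone had an end peak, at a percentile of 21.8.

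Rag1 and Rag2 encode the recombinase that cuts antigen receptor genes, and they lie side by side. Both loci took in the same shared region (chromosome 2, 101628633 to 101629246), with percentiles of 95, 98.6 and 99.3 in the aged lists, against 98.3, 97.6 and 96 in the young lists. It lies inside Rag2 and 4228 bp downstream of its start, but within 1 kb of an end of Iftap, an intraflagellar transport gene. Rag2 had no end peak in any list, and Rag1 had none in the aged lists and weak or middling ones in young replicates 2 and 3, at percentiles of 42.7 and 1.49.

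Of the 14 myeloid genes, 6 had a shared region, against 70.3% of all genes. None had one at a gene end, against 53.3%, although Fcgr3 had one on a RefSeq start inside its annotated span. Prtn3 and Elane encode proteinase 3 and neutrophil elastase, serine proteases of the primary granules, and sit next to each other on chromosome 10. A region at 79877680 to 79878277, centred 1688 bp upstream of the Prtn3 start and 8333 bp upstream of the Elane start, was called in all lists. Its percentiles were 96.8, 96.2 and 90.9 in the aged lists, against 97.3, 99.1 and 95 in the young lists, and the ages overlapped. The pair shared 3 further regions with 4 calls each, none of them in aged replicate 3. That at 79892810 to 79893087 lay at an end of another gene, Cfd. At the ends of Elane itself only young replicate 1 had a peak.

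Ltf encodes lactoferrin, an iron-binding protein of secondary granules. Its shared region lay 3428 bp past the gene (chromosome 9, 111046195 to 111046615), with percentiles of 99.6, 97.9 and 96.5 in the aged lists, against 99.5, 8.54 and 98.4 in the young lists. Fcgr3, a low-affinity receptor for immunoglobulin G, had 2 shared regions on chromosome 1. That at 171044362 to 171045196 lay 5972 bp outside the gene and ranked at 96.4, 92.1 and 83.3 in the aged lists, against 97.4, 99.4 and 90.5 in the young lists. That at 171059261 to 171059577 lay on the first start that the promoter table gives for Fcgr3, inside the annotated span, and ranked low, at 12.9 and 53.1 in aged replicates 1 and 2, against 2.45 and 71.1 in young replicates 1 and 3. Itgam, the integrin chain of Mac-1, had regions 3400 bp upstream and 26631 bp downstream of its start. Mpeg1, a pore-forming protein of macrophages, had a region 3125 bp upstream. Aged replicate 3 and young replicate 2 lacked each of these 3 regions, and the 4 other lists called them.

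Among the T cell and cytotoxic genes, 5 of 8 had a shared region, against 70.3% of all genes, and none at an end, against 53.3%. Lck encodes the kinase that starts signalling from the T cell receptor and has 2 mapped starts. A region inside the gene (chromosome 4, 129555874 to 129556922), 1974 bp downstream of the nearer start, ranked at 91.5, 94.5 and 51.4 in the aged lists, against 98.9, 53.6 and 95 in the young lists. A second region, 1783 bp upstream of the first start, ranked at 97.3, 95.2 and 88.2 in the aged lists, against 98.7 and 95.5 in young replicates 1 and 3, with no call in young replicate 2. The remaining shared region of the locus lay at an end of Hdac1, a histone deacetylase. Prf1, the pore-forming protein perforin, had a region 1157 bp past the gene in 4 lists. The only shared region at Nkg7, a protein of cytotoxic granules, lay at ends of Cldnd2 and Etfb.

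At Cd3g, a chain of the T cell receptor complex, the region 6252 bp upstream of the start lay at an end of Cd3d, a companion chain. It ranked at 99.8, 99.9 and 99 in the aged lists, against 99.7 and 99.9 in young replicates 1 and 3, and was not called in young replicate 2. Another lay at an end of Ube4a, a ubiquitin ligase, and the last at neither. Cd4, the co-receptor of helper T cells, had a shared region at ends of P3h3 and Gpr162 and another 4664 bp outside the gene at no end. Of the 22 loci with a shared region, 6 had them at ends of other genes alone, namely Igll1, Vpreb1, Rag1, Rag2, Nkg7 and Prg2. For Igll1 and Vpreb1, which encode the surrogate light chain of early B cells, this was an end of Top3b, a topoisomerase. For Prg2, the major basic protein of eosinophils, it was an end of its relative Prg3.

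The Cd79a locus also held the highest-ranking region of the B cell genes. It lay 2203 bp past the gene (chromosome 7, 24904062 to 24904528), with percentiles of 95.9, 98.2 and 98.5 in the aged lists, against 98.8, 99.9 and 99.2 in the young lists. It lay beyond the region near an end of Arhgef1, so it cannot be given to Cd79a alone either. All 3 young lists ranked it above all 3 aged lists, but ranks from lists of different lengths do not show a change in accessibility. The 99.9 is from young replicate 2, where a high percentile need not mark a strong peak. How many shared regions of all genes separate in this way is not given here.

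The 16 closed loci were Mpo, Ctsg, S100a8, S100a9, Camp, Ngp, Lyz2 and Ly6g among the myeloid genes, Ms4a1 and Cd22 among the B cell genes, Cd3e, Cd8a and Gzmb among the T cell and cytotoxic genes, and Hba-a1, Mcpt4 and Fcer1a. They were not without peaks: their median was 2 peaks per locus and list, against 4 in the 22 other loci and 4 over all genes. These counts are not adjusted for length, and the closed genes were shorter. Their median length was 3683.5 bp, against 7375.5 bp for the 22 other genes and 17329 bp for all genes. The counts therefore do not show a lower density of peaks. The peaks seldom fell in the same place. In 5 of the 16 the most widely called region had 3 lists, in 9 it had 2 and in 2, Ctsg and Hba-a1, it had 1.

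Mpo encodes the peroxidase of neutrophil primary granules. It was the only closed gene whose ends carried a peak in every list, at percentiles of 62, 38.4 and 51.4 in the aged lists, against 41.8, 73.1 and 67.3 in the young lists. The 19 regions in its locus were nevertheless shared by at most 3 lists. The best of these lay just upstream of the start (chromosome 11, 87793285 to 87793729) and was called in aged replicate 2 and in young replicates 2 and 3. In all, 10 effector genes had an end peak in 4 or more lists without any shared end region, and Mpo, Camp, Ltf, Lyz2, Itgam, Ms4a1, Cd3e, Cd4, Lck and Nkg7 were those.

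Lyz2 encodes lysozyme of macrophages and neutrophils. A region on its start was called in aged replicate 2, at a percentile of 86.4, and in young replicates 1 and 3, at 90.2 and 77.5. S100a8 and S100a9 encode the subunits of calprotectin. S100a8 had an end peak in young replicate 2 alone, at 42.7, and S100a9 had one in aged replicate 1, at 44.1, and one in young replicate 3, at 56. Ctsg, the granule protease cathepsin G, and Hba-a1, an alpha globin gene, had no end peak in any list. Ly6g, a surface protein of neutrophils, had a peak at an annotated gene boundary in young replicate 2 alone, at 97.6, while aged replicate 2 had one within 1 kb of a RefSeq start, at 53.1. As a member of the closely related Ly6 family it may share reads with its neighbours. Of the other closed genes, Camp (an antimicrobial peptide), Ngp (a granule protein), Ms4a1 (the B cell protein CD20) and Cd3e (a T cell receptor chain) had end peaks at both ages, as did Cd8a (the co-receptor of cytotoxic T cells) and Gzmb (granzyme B). Gzmb, like Fcgr3, has relatives of similar sequence, and reads there may be shared with them. Mcpt4, a mast cell protease, and Cd22, an inhibitory receptor of B cells, had end peaks in young lists alone. Fcer1a, the receptor chain for immunoglobulin E, had one in aged replicate 1 alone.

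Base composition at the start, which the choice of the genes did not use, was alike across most effector genes. RefSeq starts on GRCm38.p6 were used for 34 of the 38 genes, that is all but Cd4, Cd79b, Ms4a1 and Prg2. In the 250 bases before the start, the CpG dinucleotide was counted over the number its C and G content would give. This ratio had a median of 0.18 over the 38 starts of these genes, against 0.537 over the 21045 starts of all genes, while GC content was 51.4% against 55.6%. Tfrc stood alone, with a ratio of 0.96, and no other effector gene went above 0.47. The following stretches of 250 bases, 5′ to 3′, show starts with a shared region (Tfrc, Cpa3 and Fcgr3), starts with a region in 3 lists (Mpo and Lyz2) and starts with no region on the printed bases in any list (Elane, S100a8 and Hba-a1), with CpG in capitals.
Tfrc: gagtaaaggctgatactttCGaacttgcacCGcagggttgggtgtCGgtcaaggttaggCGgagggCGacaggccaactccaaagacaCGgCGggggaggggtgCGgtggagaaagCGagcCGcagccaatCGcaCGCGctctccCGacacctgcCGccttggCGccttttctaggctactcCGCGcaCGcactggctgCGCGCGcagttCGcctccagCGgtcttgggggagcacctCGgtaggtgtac
Cpa3: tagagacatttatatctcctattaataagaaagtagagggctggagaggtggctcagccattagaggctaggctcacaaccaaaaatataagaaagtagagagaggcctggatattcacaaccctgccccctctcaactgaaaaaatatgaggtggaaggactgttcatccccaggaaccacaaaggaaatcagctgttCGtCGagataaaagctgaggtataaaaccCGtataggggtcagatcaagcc
Fcgr3: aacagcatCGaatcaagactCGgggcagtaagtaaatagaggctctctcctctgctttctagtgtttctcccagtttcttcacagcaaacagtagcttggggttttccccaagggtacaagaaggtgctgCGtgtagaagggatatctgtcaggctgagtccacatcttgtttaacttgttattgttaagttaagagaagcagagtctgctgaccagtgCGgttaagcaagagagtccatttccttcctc
Mpo: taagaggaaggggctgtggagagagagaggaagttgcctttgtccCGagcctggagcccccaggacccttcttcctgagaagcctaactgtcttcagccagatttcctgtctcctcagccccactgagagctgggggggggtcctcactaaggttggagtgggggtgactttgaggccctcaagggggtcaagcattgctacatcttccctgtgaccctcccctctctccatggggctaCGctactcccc
Lyz2: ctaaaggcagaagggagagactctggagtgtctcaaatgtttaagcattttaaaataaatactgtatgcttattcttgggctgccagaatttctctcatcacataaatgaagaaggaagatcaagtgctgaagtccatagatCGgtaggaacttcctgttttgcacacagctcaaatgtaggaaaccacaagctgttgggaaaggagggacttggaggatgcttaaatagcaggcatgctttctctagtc
Elane: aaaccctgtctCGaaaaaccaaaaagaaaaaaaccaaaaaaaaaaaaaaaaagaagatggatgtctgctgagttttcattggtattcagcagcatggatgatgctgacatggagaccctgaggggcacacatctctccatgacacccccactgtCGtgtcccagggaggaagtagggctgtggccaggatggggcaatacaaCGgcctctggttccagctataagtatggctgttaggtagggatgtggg
S100a8: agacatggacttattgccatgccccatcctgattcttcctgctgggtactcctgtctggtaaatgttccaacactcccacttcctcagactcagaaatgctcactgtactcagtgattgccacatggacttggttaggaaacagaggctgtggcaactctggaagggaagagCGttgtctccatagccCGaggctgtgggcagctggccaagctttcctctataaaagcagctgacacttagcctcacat
Hba-a1: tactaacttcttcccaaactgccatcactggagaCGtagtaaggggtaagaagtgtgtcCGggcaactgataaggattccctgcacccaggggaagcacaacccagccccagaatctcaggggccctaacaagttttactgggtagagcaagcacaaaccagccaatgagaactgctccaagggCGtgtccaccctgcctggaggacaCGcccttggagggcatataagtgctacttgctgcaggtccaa
These bases lie, on GRCm38.p6, at chr16:32608646-32608895, plus strand (Tfrc), chr3:20242182-20242431, minus strand (Cpa3), chr1:171059404-171059653, minus strand (Fcgr3), chr11:87793534-87793783, plus strand (Mpo), chr10:117282273-117282522, minus strand (Lyz2), chr10:79886062-79886311, plus strand (Elane), chr3:90668821-90669070, plus strand (S100a8) and chr11:32283422-32283671, plus strand (Hba-a1).

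The Tfrc stretch holds 25 CpG, that of Cpa3 holds 3, Fcgr3 and Hba-a1 hold 4 each, Elane 3, Mpo and S100a8 2 each and Lyz2 1. Over all genes in the promoter table, a start with a ratio of 0.5 or more had a shared region within 1 kb in 83.9% of 9627 genes, and one under 0.5 in 20% of 7647 genes. The limit of 0.5 was set after the values had been seen. Of the 33 effector genes under it, 2 had a shared region at a start, Cpa3 and Fcgr3, or 6.06%. In all, 3 of the 34 genes had a shared region at a start, against 55.7% of all genes.

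**Figure D3:**
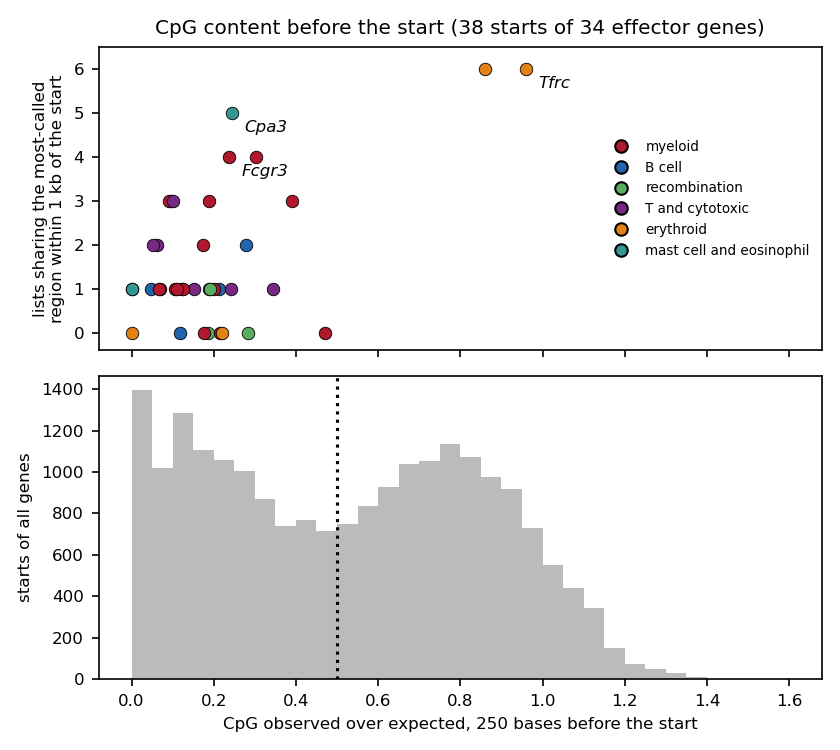
Upper panel: CpG ratio of the 250 bases before each of 38 starts of 34 effector genes against the number of lists that share the most-called region within 1 kb of that start. Lower panel: the same ratio for the 21045 starts of all genes, with a dotted line at 0.5; both Tfrc starts lie to the right of the line and all other effector genes to its left.

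Short motifs were counted in the same 250 bases on both strands, as letters only. The PU.1 letters GAGGAAGT were present at 5 of 34 effector genes, Elane, Prtn3, Mpo, Ly6g and S100a8, all of them myeloid, against 2.61% of all genes. The RUNX letters TGTGGT were present at 12 of 34, against 14.1%, and the GATA letters AGATAA at 7 of 34, against 10.4%. Those 7 were Cpa3, Fcer1a, Cd3g, Dntt, Ltf, Mpeg1 and S100a9. No erythroid gene was among them, but the printed Hba-a1 stretch holds the related letters TGATAA, which were not counted. The ETS letters CCGGAAGT, a form common in CpG-rich promoters, were present at none of the 34, against 4.31%, and the AP-1 letters TGANTCA at 1, against 7.25%. The C/EBP letters TTGNNNAAT were present at 5, against 11.1%, the E-box CAGCTG at 7, against 13.9%, and TATAAA at 7, against 13.8%. The PU.1 letters hold the GGAA core that the ETS letters also hold, and none of these matches shows that a factor was bound.

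Aged and young stem cells were then compared over the effector genes. A peak at a gene end was present for 18, 18 and 7 of the 38 genes in the aged lists, against 22, 23 and 17 in the young lists. The ages overlapped, and aged replicate 3 was the lowest of all. The mean was 14.3 ± 6.35 genes in the aged and 20.7 ± 3.21 in the young lists (SD, n = 3 lists per age), a difference of -6.33, and -2.67 without aged replicate 3. Within the exp numbers 2, 5 and 3 the aged list had 18, 18 and 7 of these genes and the young list 22, 23 and 17, so the difference was -4, -5 and -10 and the aged list was the lower in each. Among all genes the shares with an end peak were 69.1%, 64.6% and 53.1% in the aged lists and 69.7%, 55% and 64.3% in the young lists. The effector genes lay below these shares in 5 lists, and above them in young replicate 2, at 60.5%. A peak anywhere in the locus was present for 38, 36 and 28 effector genes in the aged lists, against 37, 38 and 34 in the young lists, with differences of 1, -2 and -6 within the exp numbers. Over all genes the shares with such a peak were 92.7%, 85.6% and 86.0% in the aged lists and 93.5%, 92.6% and 84.9% in the young lists.

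**Figure D4:**
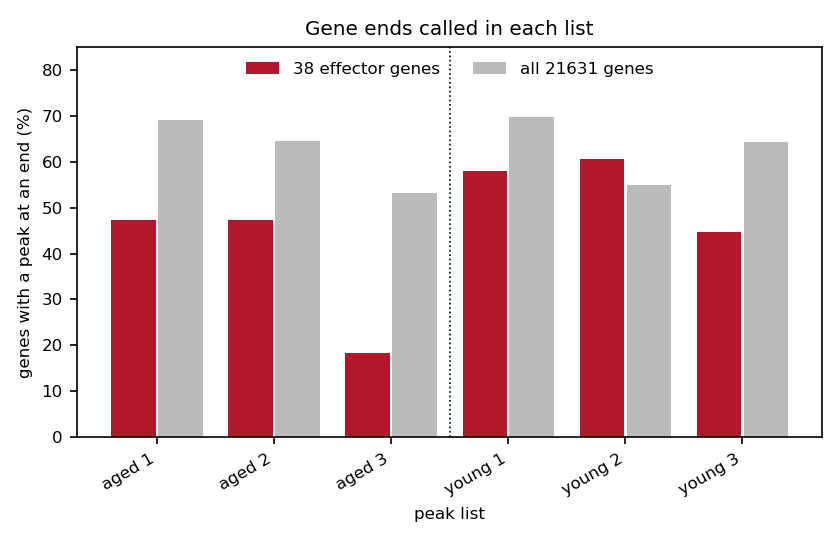
Share of genes with a peak within 1 kb of an end, in %, in each aged and young list, for the 38 effector genes (red) and all 21631 genes (grey). The red bar is lower in 5 lists, most of all in aged replicate 3 (18.4% against 53.1%), and higher in young replicate 2.

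Gene by gene, 6 of the 38 had an end peak in more aged than young lists, against 19.7% of all genes, 18 in more young lists, against 20.5%, and 14 in equal numbers, against 59.9%. The direction turned under a fixed limit: when a -log10 q of at least 2 was required, 7 had an end peak in more aged lists, against 33.4% of all genes, and 6 in more young lists, against 7.51%. The difference in effector genes called per list was then 0.667. With the 100000 strongest peaks of each list the direction did not turn. There 8 had an end peak in more aged lists, against 28.2% of all genes, and 12 in more young lists, against 14.7%. The difference per list was then -2.33. Young replicate 2 had only 224 peaks at a -log10 q of 5, and its part in the turn was not tested. No effector gene had an end called in 3 aged and 0 young lists, against 0.208% of all genes, and Cd22 alone was called in 0 aged and 3 young lists, against 0.287%. The peaks at the ends of Cd22 in young replicates 1 to 3, at percentiles of 65, 42.7 and 51, fell in 3 different regions.

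The number of peaks in a locus gave a value that could be tested for each gene by an exact 2-sided permutation test over the 6 lists, with Benjamini-Hochberg adjustment over all genes. The smallest p that 3 lists against 3 allow is 0.1, and the adjusted p was 1 for every gene. Cd79a, whose locus takes in the region near an end of Arhgef1, had 6, 5 and 6 peaks in the aged lists, against 4, 2 and 4 in the young lists. It was the only effector gene with more in every aged list (0.615% of all genes). S100a8 had 2, 1 and 0 peaks in the aged lists, against 3 in each young list. Igll1 had 3 in each aged list, against 6, 4 and 4 in the young lists, and Hbb-bt had 2 in each aged list, against 4, 3 and 3. These 3 had fewer peaks in every aged list, which held for 1.76% of all genes, and none of the 3 did so when the locus was narrowed to 5 kb on either side.

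By lineage, the mean numbers of genes with an end peak were 5.67 ± 2.52 of 14 myeloid genes in the aged and 7.33 ± 0.577 in the young lists (SD, n = 3 lists per age). The values were 2.33 ± 0.577 of 6 B cell genes in the aged and 3.67 ± 1.15 in the young lists, and 3.33 ± 2.52 of 8 T cell and cytotoxic genes in the aged and 4.67 ± 2.52 in the young lists. For the 3 erythroid genes both means were 1.67 ± 0.577. The recombination genes had 0 in each aged list, against 0, 1 and 2 in the young lists, and the 4 mast cell and eosinophil genes had 3, 1 and 0 in the aged lists, against 3, 3 and 1 in the young lists. In every lineage the ages overlapped or met at a shared count.

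As a share of all peaks, the loci of the effector genes held 0.0658%, 0.0836% and 0.0577% in the aged lists, against 0.0621%, 0.0577% and 0.0805% in the young lists. The 95% Wilson intervals, which cover counting error only, ran from 0.0461% to 0.101% over the lists of both ages. The means were 0.069% ± 0.0133 in the aged and 0.0668% ± 0.0121 in the young lists (SD, n = 3 lists per age), so the ages differed by less than the spread between lists. Within the exp numbers 2, 5 and 3 the differences were 0.00367, 0.026 and -0.0228 percentage points.

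Among the 512 merged regions in these loci, 1 was called in 3 aged and 0 young lists, against 0.0502% of all regions, and 0 were called in 3 young and 0 aged lists, against 0.0608%. The region lay in Mpeg1 near its end (chromosome 19, 12463732 to 12464547), centred 3370 bp downstream of the start, with percentiles of 80.2, 77.6 and 63.8 in the aged lists. The peak of aged replicate 1 ended at 12463991 and that of aged replicate 3 began at 12464185, so these did not overlap and were joined through the peak of aged replicate 2. Their -log10 q was 1.82, 6.23 and 1.41.

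Other genes of the same lineages were listed as companions, and 24 of these 54 had a shared end region, against 53.3% of all genes. The difference from the effector genes was not tested. Shared end regions were present for 6 of 14 myeloid companions, among them Cd68 (a lysosomal protein of macrophages). They were present for 6 of 10 B lymphoid companions, led by Bank1 (an adaptor of the B cell receptor) and Cr2 (a complement receptor). The T cell and cytotoxic companions had 4 of 12, led by Cd28 (a co-stimulatory receptor) and Cd3d, and the erythroid companions 5 of 10, led by Epb42 (a membrane skeleton protein) and Ermap (a membrane protein of erythroid cells). The mast cell and eosinophil companions had 3 of 8, led by Il1rl1 (the interleukin 33 receptor) and Prg3. The shared end regions of Cd3d, Ermap and Il1rl1 were on no start that the promoter table gives. Within 1 kb of those starts no region had more than 1 list. That of Cd28 could not be placed against a start. Ends of other genes near the companion regions are not reported here. Cd28 had an end peak in every list, at percentiles of 94.1, 88 and 75.8 in the aged lists, against 93.1, 88.8 and 76.3 in the young lists.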

How the data were processed

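ATAC-seq peak lists of 3 aged and 3 young samples, grouped by their titles, were analysed. Per the submitters' processing notes, Bowtie2, SAMtools, Picard and MACS2 were used with build mm10. The sources used here give no versions, parameters or transposase shift. The deposited lists hold per peak a score (in nearly all rows the integer part of 10 times the -log10 p, at most 1000), a fold enrichment (a ratio over the background of the same sample), the -log10 of p and of q, and the summit. Peaks were called per sample and none of 15 pairs of lists was identical. All of these are the authors' values, and they entered only as ranks and limits within a list.

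Repeated intervals were reduced to distinct peaks, and overlapping peaks (1 bp or more) of all lists were merged to 882758 regions, of which 30769 were called in 4 or more lists. Genes, starts and promoter bases came from RefSeq tables on GRCm38.p6, which corresponds to mm10; exons and introns were not resolved. The members and lists were chosen with earlier results of these data known, and all 38 members, the 2 highest-ranked companion genes per list and all check genes are named by rule, except for some items that are not reported here. Exact permutation tests were run over all 21631 genes and tested on simulated data. Python 3.11.15, numpy 2.4.6, pandas 2.3.3 and scipy 1.17.1 were used. Alternatives covered peak thresholds, list length, overlap, windows, numbers of lists and lists left out.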

Additional observations from a re-analysis of the deposited data

How the results depend on the processing

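Loci with any shared region (22) and with a distal one (19) kept within 1.5 times under every alternative run, and members with an end called in more aged lists (6) did so except when single lists were left out. Members with a shared end region (5) were 3 with a -log10 p of at least 5, a -log10 q of at least 2, the 100000 strongest peaks or starts alone, 12 with 3 or more lists, and 8 without both aged replicate 3 and young replicate 2; the shares of all genes were 43.2%, 44.3% and 50.4% at the p limit, the q limit and the strongest peaks, 58.5% with 3 or more lists and 56.9% without both lists. The age difference in end calls (-6.33) turned to 0.667 at both p and q limits, and was -2.33 with the 100000 strongest peaks. That in loci with any peak (-2.33) turned to 2.33 at the p limit, 5.67 at the q limit and 1.5 without both doubted lists. The difference in share of peaks (0.00229 percentage points) turned to -0.0138 and -0.0114 at these limits and to -0.00313 with 5 kb flanks. Members with an end called in more young lists (18) were 6 at either limit (all genes 8.65% and 7.51%) and 11 without both doubted lists (12%). Loci with more peaks in every aged list (1) were 0 at either limit, 2 per 100000 peaks and 4 without both doubted lists. Those with fewer (3) were 0 at either limit, with the 100000 strongest peaks and with 5 kb flanks. For these 2 counts the shares of all genes were not computed under the alternatives. Their changes therefore cannot be read as particular to the members. Lists with the same replicate number did not deviate together (correlations of 0.037, -0.214 and -0.227 over all genes), although their titles share an exp number that the labels do not explain. With the replicate number as a block, which asks only that every same-numbered difference has the same sign (smallest possible p 0.25), these counts were 2 and 5, and the means of the differences are the same by construction.

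Leaving out 1 list at a time gave 17 to 22 loci with any shared region, 14 to 19 with a distal and 4 to 5 with an end region. The difference in end calls was -8.17 to -2.67, in loci with any peak -4.33 to 0.667 (turned without aged replicate 3) and in share -0.005 to 0.00914 percentage points (turned without aged replicate 2, young replicate 1 or young replicate 2). The shares of all genes were not computed with 1 list left out. Members with an end in more aged lists were 7 to 12 and in more young lists 16 to 23. Loci with more peaks in every aged list were 1 to 3 and with fewer 3 to 8, partly because fewer lists had to differ. The cause of these changes was not tested beyond that. Read depth is unknown, so an absent peak may be one that was not detectable.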
